A study of Mus musculus with 8 samples.

Results

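Of the 51912 genes listed in the count files, 6 keratin genes were followed in mouse ear epidermis: the stress keratins Krt6a, Krt6b, Krt16 and Krt17 and the simple epithelial keratins Krt8 and Krt18. They were taken by name, as the keratins induced in wounded or hyperproliferative skin together with the keratin pair of single-layered epithelia. The rule that names them sets no threshold on a measured value. RNA was sequenced from epidermal sheets of 2 groups of 4 mice, all aged 8 weeks. Every mouse carried floxed A20 alleles (A20F/F; A20 is the product of Tnfaip3), and every mouse was given 1 mg of tamoxifen into the peritoneum on each of 2 consecutive days and was killed 7 days after the first injection. The A20KIKO mice were Krt5-CreERT2+, that is, they had a tamoxifen-activated Cre recombinase under the control of Krt5, a gene of basal keratinocytes. The A20WT mice were Krt5-CreERT2-, so the presence of Cre and the loss of A20 that it is meant to cause cannot be told apart in this comparison. The question put to the 6 genes was whether their transcript levels differed between the groups, and how they were distributed over the 8 mice.

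Keratins form the intermediate filaments of epithelial cells, and each filament is built from pairs of a type I and a type II keratin. Resting interfollicular epidermis uses Krt5 with Krt14 in its basal layer and Krt1 with Krt10 above it. The type II keratins Krt6a and Krt6b and their type I partners Krt16 and Krt17 are present in resting skin mainly in hair follicles and other appendages, and are switched on in interfollicular keratinocytes within hours of injury and in inflamed, hyperproliferative epidermis. Krt8 (type II) and Krt18 (type I) pair in simple epithelia such as liver and gut, and in skin they are used as markers of Merkel cells, the touch-sensing cells of the epidermis.

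Library totals ranged from 40451075 to 89624373 counts. The 14 genes of the keratinocyte identity list summed to between 88976 and 116711 CPM (counts scaled to the size of the library) in every library. Tnfaip3 was measured at 90.9, 55.0, 64.0 and 86.2 CPM in the libraries labelled A20KIKO (mice 1 to 4) and at 13.5, 19.6, 17.7 and 15.4 CPM in those labelled A20WT, a log2 difference of 2.16 in the direction opposite to the label (edgeR quasi-likelihood test, Benjamini-Hochberg adjusted p = 8.36e-05). This count covers the whole gene and no source used here names the exons removed, so the deletion was not tested by it. Of 16512 genes tested, 576 differed between the groups at an adjusted p under 0.05.

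Krt6a and Krt6b are close copies, and their sequences set how far their counts can be read apart. Krt6a (ENSMUSG00000058354) lies on the minus strand of chromosome 15 at 101689910 to 101694307 and Krt6b (ENSMUSG00000023041) beside it at 101676023 to 101680287 (GRCm38). Their coding sequences agree at 1625 of 1662 aligned bases (97.8%), with an unbroken identical run of 280 bases. The 90 coding bases within 1 exon that differ most are in exon 4 of both genes (coding bases 787 to 876), where 12 bases, in capitals, tell a Krt6a read from a Krt6b read.
Krt6a, chr15:101692484-101692573, minus strand: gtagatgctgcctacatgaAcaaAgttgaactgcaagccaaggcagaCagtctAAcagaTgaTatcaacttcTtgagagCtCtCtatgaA
Krt6b, chr15:101678303-101678392, minus strand: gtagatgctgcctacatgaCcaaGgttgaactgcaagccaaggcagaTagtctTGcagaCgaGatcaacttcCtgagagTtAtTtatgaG
A second stretch, coding bases 34 to 123 in exon 1, is the same in both genes, so bases read from it fit either copy.
Krt6a (chr15:101694126-101694215) and Krt6b (chr15:101680101-101680190), minus strand: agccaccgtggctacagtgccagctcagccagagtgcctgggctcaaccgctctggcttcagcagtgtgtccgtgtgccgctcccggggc
Of 911 such 90-base windows within single exons, 434 (47.6%) were identical between the copies. No source used here says how the authors' counting treated reads that fit both genes, so single values of Krt6a and Krt6b are uncertain and their sum is given as well. The sequences were taken from GENCODE M21 transcripts.

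The other members were less exposed to shared sequence. Krt16 (ENSMUSG00000053797, chromosome 11, 100246091 to 100248902, minus strand) and its neighbour Krt17 (ENSMUSG00000035557, chromosome 11, 100256217 to 100261029, minus strand) were 77.5% identical in coding sequence. Krt16 was closer to Krt14, at 86.0%, than to Krt17. Of its 75-base stretches, 28.9% also occurred in another annotated gene, 22.5% in the gene model Gm11597, which had 590 counts over the 8 libraries, and 6.44% in Krt14, which had 10749943. How such reads were counted bears on low values of Krt16 and was not tested. None of the 75-base stretches of Krt17 or of Krt18 (ENSMUSG00000023043, chromosome 15, 102028180 to 102032027, plus strand) occurred in another gene. Krt8 (ENSMUSG00000049382, chromosome 15, 101996698 to 102004482, minus strand) shared 22.0% of its stretches with the pseudogene Krt8-ps, which had 0 counts. The exons of Krt6a and Krt8 also overlap genes annotated on the other strand (Gm49428 and Gm36026, not listed in the files), and reads from the 2 strands cannot be told apart here.

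By their medians, the stress keratins lay below the basal keratins and above the simple keratins. On a per-length scale (CPM per kilobase of exon), medians over the A20WT mice were 845 for Krt17, 114 for Krt16, 44.9 for Krt6a, 12.5 for Krt6b, 0.505 for Krt8 and 0.0442 for Krt18. The basal pair stood above them, with 2836 CPM per kilobase for Krt5 and 11747 for Krt14. Krt17 lay above Krt16 in all 4 A20WT mice and the ranges of these genes did not overlap there, whereas the ranges of Krt16, Krt6a and Krt6b overlapped. In A20KIKO the medians fell in the same order, with 1191, 248, 66.0, 39.9, 0.455 and 0.075 CPM per kilobase, and the range of Krt17 (962 to 2346) then overlapped with those of Krt5 (1526 to 1655) and Krt16 (126 to 2151). Within every mouse Krt8 and Krt18 lay below all 4 stress keratins. They came nearest in A20WT mouse 2, where Krt6b had 0.701 CPM per kilobase and Krt8 had 0.387.

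**Figure D1:**
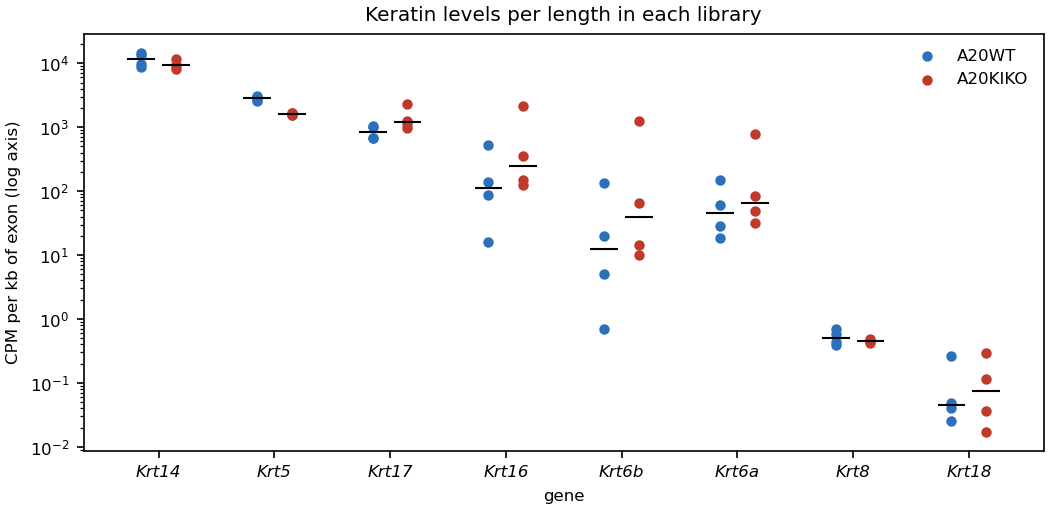
Level per length of the 6 keratins and of Krt5 and Krt14 in each library, in CPM per kilobase of exon on a log axis; points are mice, blue A20WT and red A20KIKO, and bars are medians of 4. By its medians Krt17 sits below Krt5 and Krt14, though in A20KIKO mouse 4 it lies above Krt5. The other stress keratins spread widely, and Krt8 and Krt18 lie near or below 1.

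Krt6a varied more between mice than between genotypes. Its level was 203, 116, 75.8 and 1916 CPM in A20KIKO mice 1 to 4 and 148, 45.4, 69.3 and 365 CPM in A20WT mice 1 to 4. The level in A20KIKO mouse 4 was 5.25 times that of the next library, A20WT mouse 4, and the remaining 6 libraries of both groups were interleaved. The means were 578 ± 894 and 157 ± 145 CPM (SD, n = 4 each). The log2 change of 1.88 (95% interval -1.27 to 5.04) did not pass edgeR's quasi-likelihood test (adjusted p = 0.589). Without A20KIKO mouse 4 the log2 change was -0.25 (edgeR adjusted p = 0.954), and without both mice numbered 4 it was 0.59 (edgeR adjusted p = 0.704).

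Krt6b showed the same order of mice with a wider spread. It had 147, 31.6, 22.4 and 2822 CPM in A20KIKO and 44.7, 1.57, 11.1 and 303 CPM in A20WT. All 8 libraries ranked as they did for Krt6a: A20KIKO mouse 4 was highest, then A20WT mouse 4, A20KIKO mouse 1, A20WT mouse 1, A20KIKO mice 2 and 3, and A20WT mice 3 and 2. Between the highest and the lowest library, 247869 counts and 87 counts, Krt6b differed 1800.2-fold in CPM. Group means were 756 ± 1379 and 90 ± 143 CPM (SD, n = 4 each), and the log2 change of 3.07 (95% interval -2.3 to 8.44) did not pass (edgeR adjusted p = 0.608). It was -0.42 without A20KIKO mouse 4 (edgeR adjusted p = 0.967) and 1.81 without both mice numbered 4 (edgeR adjusted p = 0.667). With the counts of both copies summed, the log2 change was 2.43 (edgeR adjusted p = 0.568).

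Krt16, the type I partner of the Krt6 copies, followed them closely. It was measured at 545, 197, 231 and 3366 CPM in A20KIKO and at 219, 24.9, 138 and 823 CPM in A20WT. The 2 highest libraries were again the mice numbered 4 and the lowest was again A20WT mouse 2, and the groups overlapped. The log2 change was 1.85 (95% interval -1.51 to 5.21, means 1085 ± 1529 and 301 ± 357 CPM, SD, n = 4 each), with an edgeR adjusted p of 0.624. Without A20KIKO mouse 4 it was 0.11, and without both mice numbered 4 it was 1.35 (edgeR adjusted p = 0.989 and 0.468).

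Krt17 was the most abundant member and had the narrowest spread among the stress keratins. It had 1927, 1491, 1766 and 3639 CPM in A20KIKO and 1563, 1057, 1034 and 1638 CPM in A20WT. A20KIKO mice 4, 1 and 3 were the 3 highest libraries, and A20KIKO mouse 2 lay below A20WT mice 1 and 4, so the groups overlapped. In 14 of the 16 pairings of an A20KIKO with an A20WT mouse the A20KIKO mouse was higher. The means of 2206 ± 972 and 1323 ± 322 CPM (SD, n = 4 each) gave a 1.67-fold difference (log2 change 0.74, 95% interval 0.14 to 1.34) with an unadjusted p of 0.02, which did not pass after adjustment over all genes (edgeR adjusted p = 0.206). Leaving out A20KIKO mouse 4 lowered the log2 change to 0.39 (edgeR adjusted p = 0.427), and leaving out both mice numbered 4 gave 0.51 (edgeR adjusted p = 0.321).

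**Figure D2:**
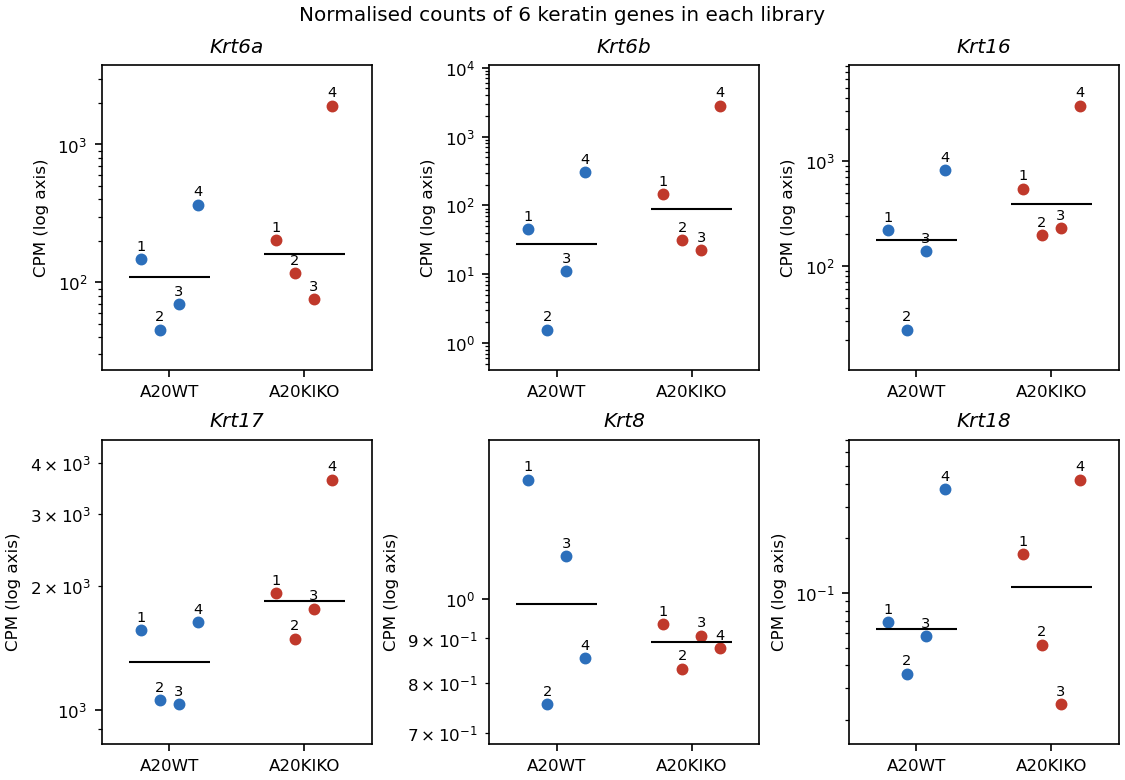
CPM of each of the 6 keratins in each library, on log axes that differ between panels; points are mice with their numbers, blue A20WT and red A20KIKO, and bars are medians of 4. A20KIKO mouse 4 is highest for Krt6a, Krt6b, Krt16, Krt17 and Krt18, and A20WT mouse 4 is second for all of these but Krt17; the groups overlap in every panel.

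Krt8 was of low abundance and did not separate the groups. Its counts were 80, 48, 37 and 77 in A20KIKO and 119, 42, 97 and 55 in A20WT, or 0.935, 0.831, 0.907 and 0.877 CPM against 1.37, 0.757, 1.12 and 0.854 CPM. The A20KIKO mice all lay inside the range of the A20WT mice. The log2 change of -0.21 had a 95% interval of -0.84 to 0.41 (edgeR adjusted p = 0.803).

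Krt18 was at the edge of detection. It had 14, 3, 1 and 37 counts in A20KIKO and 6, 2, 5 and 24 counts in A20WT, did not pass the filter on low counts and was not tested. A20KIKO mice 2 and 3 and A20WT mouse 2 had 3 counts or fewer, which is the level that a count of 0 allows. Its means were 0.165 ± 0.181 and 0.134 ± 0.16 CPM (SD, n = 4 each), which is a log2 ratio of 0.30, given without a test. The highest libraries were A20KIKO mouse 4 and A20WT mouse 4, which were also the highest for Krt6a, Krt6b and Krt16, while Krt8 in both of those mice lay inside the range of the other 6. Libraries prepared by polymerase chain reaction without molecular identifiers do not count independent molecules, so counts this low are less certain than their number implies.

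None of the 5 tested members passed the threshold, against 3.49% of all genes tested. At an unadjusted p under 0.05, 1 of the 5 passed (Krt17), against 15.4% of all genes. DESeq2, limma-voom and limma-voom with sample weights also called 0 members at an adjusted p under 0.05. DESeq2 gave no p for Krt6a and Krt6b. None of the 5 separated the groups without overlap, which 10.6% of all genes did. Their median log2 change was 1.85, beside -0.01 over all genes tested, and 4 of the 5 values were above 0 with all 8 libraries and 2 without A20KIKO mouse 4. The plot of changes with libraries left out shows that Krt6a and Krt6b crossed 0 without A20KIKO mouse 4, that no other single mouse left out had this effect, and that Krt16 stayed above 0.

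**Figure D3:**
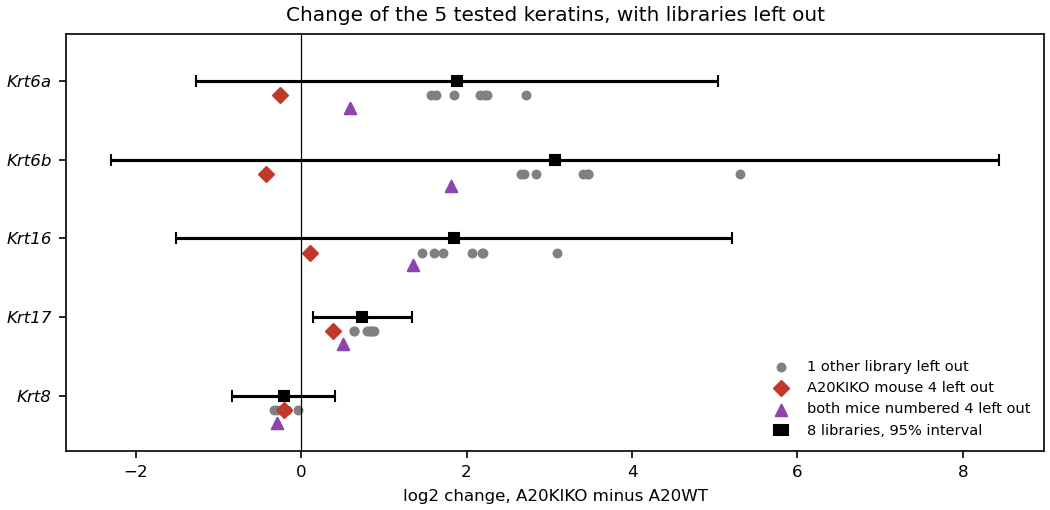
Log2 change (A20KIKO minus A20WT) of the 5 tested keratins from edgeR; black squares with bars are the estimates with all 8 libraries and their 95% intervals, and the other symbols are estimates with libraries left out. The red diamonds, without A20KIKO mouse 4, stand at -0.25 for Krt6a and -0.42 for Krt6b, whereas Krt17 stays between 0.39 and 0.88 with any single mouse left out.

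As a description, Krt6a, Krt6b and Krt16 spread over mice more than most genes of the tissue. Some wound companion genes listed below spread as widely. Between the highest and lowest library, S100a9 differed 1023-fold and Stfa1 323-fold, though Sprr1a differed only 6.02-fold. The same measure was 42.2-fold for Krt6a, 135-fold for Krt16 and 3.52-fold for Krt17. The root mean square deviation of log2 CPM from the mean of the 8 libraries was 3.04 for Krt6b, 1.93 for Krt16 and 1.6 for Krt6a, and at least 99.3% of the 10337 genes averaging 5 CPM or more spread less than each of them. Krt17 had a deviation of 0.53, with 96.0% of those genes below it, and Krt8 one of 0.25, with 67.7% below it. In A20KIKO mouse 4 the 6 members together made up 1.17% of all counts and 11.2% of the counts of all keratin genes. In the other A20KIKO mice they made up 0.184 to 0.282% of all counts, and in the A20WT mice 0.113 to 0.313%.

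The share of Krt6b among the counts of the Krt6 pair differed from mouse to mouse. It was 42.0, 21.4, 22.8 and 59.6% in A20KIKO mice 1 to 4 and 23.2, 3.34, 13.8 and 45.4% in A20WT mice 1 to 4. The widest 95% Wilson interval of these shares, which covers counting error only, was 21.5 to 24.1% in A20KIKO mouse 3. The summed level of the pair was 349.6, 148, 98.2 and 4738 CPM in A20KIKO and 193, 46.9, 80.3 and 667 CPM in A20WT. Mice with a higher sum had a higher Krt6b share, with A20KIKO mice 2 and 3 as the only neighbours out of order; Krt6b is itself part of that sum. The log2 ratio of Krt6a to Krt6b was 0.89 ± 1.16 in A20KIKO and 2.37 ± 1.92 in A20WT (SD, n = 4 each), and the difference of -1.48 did not pass (exact two-sided permutation test over the libraries, p = 0.286, 0.429 adjusted over 6 ratios).

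Ratios to the partner and basal keratins, which do not depend on the scaling of a library, gave 1 separation between the groups. Krt17 counts were 13.5, 9.06, 10.7 and 17.9% of Krt14 counts in A20KIKO and 6.07, 6.93, 5.99 and 6.81% in A20WT. Every A20KIKO mouse lay above every A20WT mouse, and the A20WT mice were tightly grouped. The log2 ratio was -3.02 ± 0.43 against -3.96 ± 0.11 (SD, n = 4 each), a difference of 0.94. The exact two-sided permutation test gave p = 0.0286, the smallest that 4 against 4 libraries allow, and 0.171 after adjustment over the 6 ratios. Both terms contributed: Krt17 had a log2 change of 0.74 and Krt14 one of -0.28 (16905 ± 2529.9 against 20573 ± 5099 CPM with SD and n = 4, edgeR adjusted p = 0.537), and neither passed on its own. The difference was 0.76 without A20KIKO mouse 4 and 0.79 without both mice numbered 4.

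The other 5 ratios overlapped between the groups. Krt16 to Krt14 differed by 2.03 and Krt6a to Krt5 by 1.91 on the log2 scale (exact permutation p = 0.143 for each, 0.286 adjusted). Krt5 itself, the type II keratin of the basal layer and the gene whose promoter drives Cre here, fell in A20KIKO by 0.83 on the log2 scale (3512 ± 133 against 6227 ± 575 CPM, SD, n = 4 each, edgeR adjusted p = 0.00272), which enters the second of these ratios. Krt16 to Krt17 differed by 1.09 (exact permutation p = 0.457, 0.549 adjusted). In A20KIKO mouse 4 the Krt16 count was 92.5% of the Krt17 count and in A20WT mouse 4 it was 50.3%, against 2.35 to 28.3% in the other 6 mice. Krt8 to Krt18 differed by -0.41 (exact permutation p = 0.771, 0.771 adjusted), and this difference was 0.23 without A20KIKO mouse 4, 0.43 on lane 1 alone and -1.66 on lane 2 alone.

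**Figure D4:**
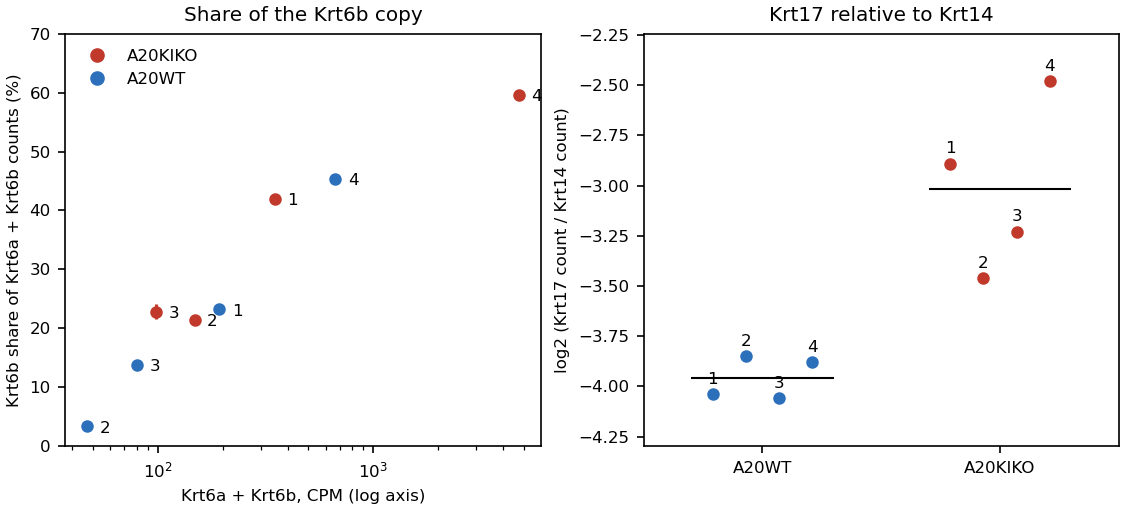
Left, the share of Krt6b in the counts of Krt6a plus Krt6b (%) against their summed CPM on a log axis, 1 point per mouse with 95% Wilson intervals that are mostly smaller than the points; right, the log2 ratio of Krt17 to Krt14 counts with bars at group means of 4. The share runs from 3.34% in A20WT mouse 2 to 59.6% in A20KIKO mouse 4, and the Krt17 to Krt14 ratios of the groups do not overlap.

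Among the other 48 keratin genes in the files, of which 35 were tested, 0 were higher and 2 were lower in A20KIKO (1.06% of all genes tested were lower). Those were Krt5 and Krt77, a type II keratin, which fell by 0.83 on the log2 scale (349 ± 77.9 against 621 ± 129 CPM, SD, n = 4 each, edgeR adjusted p = 0.0259). The call of Krt77 was lost when any 1 of A20KIKO mice 2, 3 and 4 and A20WT mice 1, 2 and 4 was left out (edgeR adjusted p = 0.0632 to 0.0866), and without both mice numbered 4 its adjusted p in edgeR was 0.182. The median log2 change of the 35 was 0.22. Krt5 and Krt77 belonged to the list of 10 keratins of the interfollicular epidermis, whose median was -0.06. Of 6 tested keratins of other simple and mucosal epithelia, 0 passed, with a median of 0.18. Krt7, a simple epithelial keratin of glands and ducts, had 9.3 ± 1.81 CPM in A20KIKO and 6.91 ± 1.05 CPM in A20WT, and Krt23 had 417 ± 80.9 and 439 ± 21.1 CPM (SD, n = 4 each, edgeR adjusted p = 0.27 and 0.878). Of 13 tested keratins of the hair follicle and hair, 0 passed, with a median of 0.6. Krt75, of the companion layer of the follicle, had 9.65 ± 2.92 and 9.79 ± 2.98 CPM (edgeR adjusted p = 0.987), and Krt84, a keratin of hard structures, had 63.9 ± 22.1 and 5.88 ± 6.79 CPM (edgeR adjusted p = 0.12, SD, n = 4 each). Krt1, the suprabasal keratin, was named after its values were seen. Its level was 7996 CPM in A20KIKO mouse 4 and 3791 CPM in A20WT mouse 4, and the other 6 mice lay between 1353 and 2266 CPM.

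Some of the genes reported to switch on stress keratins passed the test. Of 29 such receptors, ligands and transcription factors, all tested, 2 rose and 3 fell, with a median log2 change of 0.18. Over all genes tested, 2.43% rose and 1.06% fell. The widest change was in Epgn, the EGF receptor ligand epigen, which had 22.3, 9.81, 13.8 and 24.5 CPM in A20KIKO and 0.968, 1.3, 1.53 and 1.6 CPM in A20WT (log2 change 3.71, edgeR adjusted p = 8.36e-05). The groups were far apart for Epgn, and A20KIKO mouse 4 was close to A20KIKO mouse 1. Il20ra, a receptor subunit for IL-20 family cytokines, fell by 0.72 on the log2 scale (27.3 ± 1.98 against 45.1 ± 5.71 CPM, SD, n = 4 each, edgeR adjusted p = 0.00628). Ereg, the EGF receptor ligand epiregulin, fell by 0.91 on the log2 scale (edgeR adjusted p = 0.0123). The remaining 2 calls, named after their values were seen, were a rise of Nfkbiz, which encodes the nuclear inhibitor IkB-zeta (log2 change 1.2), and a fall of the EGF receptor ligand Btc (log2 change -1.38), with edgeR adjusted p = 0.0218 and 0.0228. Without A20WT mouse 1, 2 or 3 neither passed (nor did Btc without A20KIKO mouse 3), with edgeR adjusted p up to 0.143 for Nfkbiz and 0.109 for Btc. Without both mice numbered 4, the adjusted p of Ereg in edgeR was 0.0533. EGF receptor ligands thus did not move together, since Epgn rose while Ereg and Btc fell. Another of them, Hbegf, also named after its values were seen, did not pass and was highest in A20KIKO mouse 4, at 51.3 CPM beside 5.62 to 13.2 CPM in the other 7 mice.

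Beside 3.49% of all genes tested, 1 of 22 tested genes for proteins that bind keratin filaments or are bound by them was called (median 0.08). It was Tnfrsf1b, which encodes TNF receptor 2 and rose from 2.90 ± 0.595 to 7.91 ± 2.52 CPM (SD, n = 4 each, log2 change 1.45, edgeR adjusted p = 0.00538). The other 21, among them the linker proteins plectin and desmoplakin and the 14-3-3 proteins that bind keratins, did not pass. Of 20 cell cycle genes 0 passed, with a median of 0.26, and the log2 change of every one was above 0. The groups did not overlap for Top2a, Ccna2, Aurkb, Tpx2 and Mcm5, named after their values were seen. Of all genes tested, 10.6% did not overlap. Top2a came nearest to the threshold (log2 change 0.52, edgeR adjusted p = 0.0558). Mcm6 and Mcm7, subunits of the replicative helicase, had 167 ± 9.05 and 114 ± 5.49 CPM in A20KIKO and 159.6 ± 20.6 and 104 ± 9.37 CPM in A20WT (SD, n = 4 each).

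The summed level of genes known to accompany stress keratins in wounded and hyperproliferative epidermis was high in the same mice. Of 24 such genes tested, 0 passed, and their median log2 change was 2.32 beside -0.01 over all genes. Their summed level was 745, 612, 671 and 8594 CPM in A20KIKO and 619, 394, 650 and 1152 CPM in A20WT, so A20KIKO mouse 4 stood alone and A20WT mouse 4 was second. S100a9, a subunit of calprotectin, had 29.8, 10.8, 10.4 and 1899 CPM in A20KIKO and 12.9, 1.86, 13.3 and 18 CPM in A20WT (edgeR adjusted p = 0.324). Sprr1a, a small proline-rich precursor of the cornified envelope, had 195, 188, 214 and 759.9 CPM in A20KIKO and 258, 126, 205 and 358 CPM in A20WT (edgeR adjusted p = 0.758). Gjb2, which encodes connexin 26 and was named after its values were seen, was at 616 CPM in A20KIKO mouse 4 and between 31.6 and 64 CPM elsewhere. A20KIKO mouse 4 was first for all 3 genes, while A20WT mouse 4 was second for Sprr1a and, narrowly, for Gjb2 but below A20KIKO mouse 1 for S100a9. Other genes of the list, named after their values were seen, had other patterns. The groups did not overlap for Serpinb3a (63.5 to 456 CPM in A20KIKO, 7.23 to 34.6 CPM in A20WT) and Itga5. Of all genes tested, 10.6% did not overlap. Tnc was highest in A20KIKO mouse 1.

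The genes whose pattern over the 8 mice was most like that of a member were found by the root mean square difference of centred log2 CPM. For Krt6a they were Slpi, a secreted inhibitor of leukocyte proteases (0.37), Klk13, a kallikrein protease (0.55), and Prss27, a serine protease (0.67). Slpi had 27.1, 20.2, 17.6 and 187 CPM in A20KIKO and 19.8, 6.54, 11.7 and 39.7 CPM in A20WT, with both mice numbered 4 highest, as for Krt6a. For Krt6b they were BC100530 (0.74), 2610528A11Rik (1.02) and Stfa1 (1.09), of which Stfa1 is a stefin, a cysteine protease inhibitor. For Krt16 they were Krt6a (0.71), Slpi (0.74) and BC100530 (0.75). Krt17 had other neighbours, at smaller differences: Pxdc1 (0.13), Prss22, a serine protease (0.14), and Acot7, an acyl-CoA thioesterase (0.17). Those of Krt8 were Smim8, Sarnp and Magoh, each at 0.1, and a gene of small spread is near many others by this measure. Between members the difference was 0.71 for Krt6a and Krt16, 1.15 for Krt6a and Krt17 and 1.56 for Krt6a and Krt6b, which rank the mice alike but differ in range. The libraries that define these patterns are the same 8, and no p is given.

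**Figure D5:**
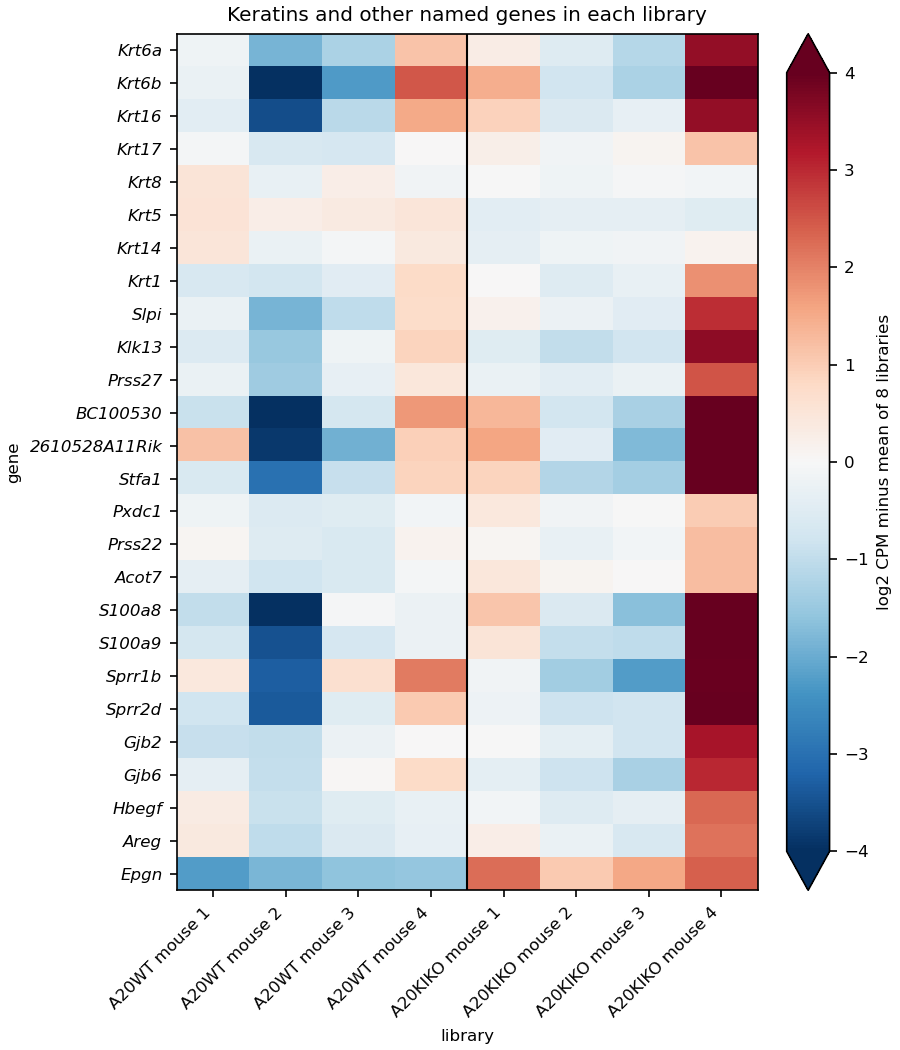
Log2 CPM of each gene minus its mean over the 8 libraries, for keratins, the genes most like them in pattern, and genes of wound and stress keratin lists, some of them chosen for display after their values were seen; columns are mice and the colour scale ends at -4 and 4. Most rows are darkest red in A20KIKO mouse 4 and many are blue in A20WT mouse 2, whereas Epgn divides the groups.

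Markers of other cells were read beside these values. In bulk tissue, fewer cells of a type and less RNA per cell cannot be told apart. Of 15 Merkel cell markers, 6 were tested and 0 passed (median log2 change -0.4). They summed to 1.99 to 5.09 CPM in A20KIKO and 2.56 to 3.99 CPM in A20WT, and Sox2, Scg2 and Vip had 3 counts or fewer over all libraries. Krt20, the Merkel cell keratin, named after its values were seen, had 40, 16, 6 and 4 counts in A20KIKO and 9, 3, 13 and 13 counts in A20WT, so its highest library was A20KIKO mouse 1. The summed markers were highest in mouse 4 of each group, as was Krt18, but Tubb3 alone gave 4.32 of the 5.09 CPM in A20KIKO mouse 4. Averaged over the 6 tested markers, the log2 difference from the A20WT mean was -0.32 in that mouse. It was -0.04, -0.16 and -0.52 in A20KIKO mice 1 to 3, and 0.34 in A20WT mouse 4, the highest of its group. The part of Merkel cells in the Krt18 values was not tested. Tubb3 and Piezo2, the most abundant of these markers, had 2.02 ± 1.56 and 0.191 ± 0.128 CPM in A20KIKO and 1.78 ± 0.621 and 0.294 ± 0.157 CPM in A20WT (SD, n = 4 each).

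The summed levels of neutrophil and of monocyte or macrophage markers were also highest in A20KIKO mouse 4. The 12 neutrophil markers summed to 43.4, 35.3, 44.9 and 178 CPM in A20KIKO and 33.4 to 43.0 CPM in A20WT, with 0 of 2 tested passing (median 0.87). The neutrophil surface gene Ly6g, named after its values were seen, had 141 counts in that mouse and 0 counts in each of the other 7, and Elane was at 3 counts or fewer over all libraries. Cxcr2 and Mmp9, the 2 tested, had 20.1 ± 19.1 and 43.4 ± 26.5 CPM in A20KIKO and 8.93 ± 4.76 and 29.4 ± 3.0 CPM in A20WT (SD, n = 4 each). These 2 genes made up most of the A20WT sums. Other markers named after their values were seen were Retnlg, Csf3r and Mmp8, with 22.2, 12.1 and 8.04 CPM in A20KIKO mouse 4. Their A20WT means were 0.00388, 0.0203 and 0.109 CPM. Mpo and Camp, also so named, were highest in A20KIKO mouse 3. The 14 monocyte and macrophage markers summed to 76.7, 30.1, 47.9 and 128 CPM in A20KIKO and 22.3 to 30.1 CPM in A20WT. In A20KIKO mouse 4, Cd14, named after its values were seen, gave 52.4 CPM of this sum. Its next library, A20WT mouse 1, had 5.65 CPM. Of 9 tested, 4 rose (median 2.19), beside 2.43% of all genes tested. They were the complement genes C1qa, C1qb and C1qc with log2 changes of 2.19, 3.77 and 3.3, and Ly6c2, named after its values were seen, with 3.81 (edgeR adjusted p = 0.00184, 0.00227, 0.00272 and 0.00334). A20WT mouse 4, the second highest for Krt6a, Krt6b and Krt16, had 43.0 CPM of the neutrophil and 30.1 CPM of the monocyte and macrophage markers, each the highest of the A20WT mice by a narrow margin. C1qa, C1qb, C1qc and Ly6c2 were each highest in A20KIKO mouse 1, with A20KIKO mouse 4 second. The part of neutrophils, monocytes and macrophages in the keratin values was not tested.

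The lists of follicle and gland markers had higher sums than the lists above, largely from a few abundant genes. Of 11 tested markers of the follicle outer sheath and bulge, where Krt17 and Krt6a are made in resting skin, 0 passed (median -0.07), with sums of 1984 to 2333 CPM in A20KIKO and 1751 to 2855 CPM in A20WT. Col17a1 and Postn led them, at 1468 ± 99.1 and 425 ± 184 CPM in A20KIKO and 1737 ± 435 and 500.2 ± 161 CPM in A20WT (SD, n = 4 each). Most of these sums came from those 2 genes. Lhx2, Cd34 and Lgr5, named after their values were seen, averaged 10.1, 2.69 and 2.2 CPM in A20KIKO. In A20WT they averaged 9.65, 2.85 and 2.91 CPM. Of 14 sebaceous and sweat gland markers tested, Elovl3, a fatty acid elongase, rose and the water channel Aqp5 fell (log2 change 0.89 and -1.99, edgeR adjusted p = 0.0212 and 0.00169, list median 0.27). Over all genes tested, 2.43% rose and 1.06% fell, to be read beside this and the later counts. Elovl3 did not pass without A20KIKO mouse 1 or any single A20WT mouse (edgeR adjusted p = 0.051 to 0.0791). That list summed to 2985 to 5105 CPM in A20KIKO and 2787 to 3389 CPM in A20WT, in each group highest in mouse 4. Fabp5, named after its values were seen, gave 2906 of the 5105 CPM in A20KIKO mouse 4. Dgat2, also so named, averaged 1224 CPM in A20KIKO and 1152 CPM in A20WT. Averaged over the 14 tested genes, the log2 difference from the A20WT mean was 0.24, 0.41, -0.1 and 0.01 in A20KIKO mice 1 to 4. It was -0.06 in A20WT mouse 4, the lowest of its group. Fibroblast and cartilage markers summed to 22.6 to 50.7 CPM in A20KIKO and 48.5 to 74.3 CPM in A20WT, with 0 of 10 tested passing and a median of -1.48. Of 9 melanocyte markers Slc45a2, a melanosome transporter, rose (log2 change 2.03, edgeR adjusted p = 0.0259, list median 1.25), but not when any 1 of A20KIKO mice 1 and 2 and A20WT mice 1, 3 and 4 was left out (edgeR adjusted p = 0.0692 to 0.0892). None of 6 tested endothelial, 10 Langerhans cell or 11 T cell markers passed, with medians of 0.11, 0.15 and 0.31. Of the 14 keratinocyte identity genes 1, Krt5, passed, with a list median of -0.05.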

How the data were processed

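RNA from 8 epidermal sheets was sequenced after SMART-Seq v4 and Nextera preparation with paired 150-base reads, per the labels' protocols. The authors deposited raw counts per Ensembl gene, with 2 lane columns per library. The submitters' processing notes name STAR 2.4.2a, Picard 1.139, HTSeq 0.6.1p1 and, as builds, GRCm38.p5 and GRCh38. The strand setting is not given in the sources used here. Lanes were summed, giving 40451075 to 89624373 counts per library (mean 70820780), which is above the average number of reads that the labels state. Lanes differed by 2.48 to 2.75 times Poisson variance per gene; the cause was not tested. Symbols were matched for 51633 of 51912 identifiers. 23541 genes had no count.

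Groups were compared with edgeR 4.0.16 (R 4.3.3; TMM factors, filterByExpr with a minimum count of 10, robust quasi-likelihood test, two-sided, Benjamini-Hochberg adjustment over 16512 genes, threshold 0.05); the procedure was tested on simulated data. CPM values use TMM library sizes. Ratios of counts (pseudocount 0.5) were compared by exact permutation of the library labels. Coordinates, exon lengths and sequences came from GENCODE M21. Alternatives were RLE factors, library totals, other filters, DESeq2 1.42.0, limma-voom (limma 3.58.1), limma-voom with sample weights, dispersions estimated without robust shrinkage, a replicate block, single lanes, left-out libraries, summed Krt6 copies and a pseudocount of 5.

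The members and the 18 gene lists were chosen with earlier results of these data known. The genes named were the members, Krt5, Krt14, Tnfaip3, any other keratin called, the 3 genes most like each member, and, of each list, its 2 most abundant genes or, if any were called, the leading calls by adjusted p (at most 3); others are marked where they stand. A gene of 1 list is not reported here, and that list was counted without it.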

Additional observations from a re-analysis of the deposited data

Results flagged for a closer look

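In 36 groups of 4 values, 7 had a mouse that stood apart. Its distance from its nearest neighbour took up more of the range of its group than Dixon's 95% critical value. Chance gives this in about 1 of 20 groups of normally distributed values. The CPM values were tested without a log and differed up to 1800.2-fold between libraries (Krt6b), so that rate cannot be taken to hold here. The groups tested share mice and genes. A20KIKO mouse 4 was the distant one for Krt6a (1916 CPM), Krt6b (2822 CPM), Krt16 (3366 CPM) and the summed share of the 6 members (1.17% of counts). A20WT mouse 4 was the distant one for Krt6b (303 CPM), for Krt18 (0.373 CPM, from 24 counts) and for the log2 ratio of Krt8 to Krt18 (1.18, the lowest of its group). Krt17 and Krt8 had no such mouse in either group.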

How the results depend on the processing

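Of 230 alternative values, 219 kept their direction and their side of the threshold, or moved by less than the spread of the mice or, for counts of genes, by less than 1.5 times. No member or ratio passed after adjustment with all libraries, so staying on that side says little about stability. The 219 include the log2 changes without A20KIKO mouse 4 of Krt16 (0.11, from 1.85) and Krt18 (-0.74, from 0.3). No member was called under any of 21 alternatives. Without A20KIKO mouse 4 the log2 change turned to -0.25 for Krt6a and -0.42 for Krt6b, and the difference between the groups in the log2 ratio of Krt8 to Krt18 turned from -0.41 to 0.23. That difference was 0.43 on lane 1 alone and -1.66 on lane 2 alone. The cause was not tested. With 1 mouse left out at a time, log2 changes ranged from -0.25 to 2.72 for Krt6a, -0.42 to 5.3 for Krt6b, 0.11 to 3.09 for Krt16, 0.39 to 0.88 for Krt17, -0.33 to -0.04 for Krt8 and -0.74 to 1.6 for Krt18 (1.6 without A20WT mouse 4), and the difference in the ratio of Krt8 to Krt18 from -1.16 to 0.23. At an unadjusted p under 0.05, Krt17 no longer passed without A20KIKO mouse 4 or A20WT mouse 1, 2 or 3. The count of genes changed, 576 with all libraries, was 348 to 619 with 1 mouse left out, the lowest without A20KIKO mouse 1 and 355 without A20WT mouse 3. It was 352 without both mice numbered 4, 374 with a filter of 5 CPM in 4 libraries (fewer genes tested), 1171 with DESeq2 and 946 with limma-voom and sample weights. DESeq2 gave no p for Krt6a and Krt6b, Krt8 was not tested under the stricter filter, and Krt18 was tested only where the filter allowed it.

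The replicate numbers of the labels are shared by the groups, but the labels do not say that they pair mice. Correlations of same-numbered mice ran from -0.014 to 0.237 in the 4 pairs, and 3 of 8 libraries correlated best with their own number. With the replicate number as a block, 551 genes were called and 0 members, with log2 changes of 1.07 for Krt6a, 2.5 for Krt6b, 1.76 for Krt16, 0.68 for Krt17 and -0.18 for Krt8 (edgeR adjusted p = 0.272, 0.186, 0.0624, 0.0509 and 0.868). At an unadjusted p under 0.05, 4 members (Krt6a, Krt6b, Krt16 and Krt17) passed with the block.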

Other observations

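Krt84, a type II keratin of hard structures such as nail and tongue papillae, was a keratin outside the members whose groups did not overlap. It had 93.5, 42.5, 66.8 and 52.7 CPM in A20KIKO mice 1 to 4 and 2.12, 1.05, 4.52 and 15.8 CPM in A20WT mice 1 to 4. A20KIKO mouse 4 was in the middle of its group, and A20WT mouse 4 was the highest of the A20WT mice. The log2 change was 3.44 (SE 0.89), and its call depended on the test: the edgeR adjusted p was 0.12, against 0.001 with DESeq2, 0.00308 with limma-voom and 0.0195 with non-robust dispersions in edgeR. It was 0.00924 without A20WT mouse 4 and 0.15 to 0.283 without any other single mouse.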
